A study of Mus musculus with 69 samples.

Results

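The levels of 10 transcription factors that steer effector and memory T cells were followed through RNA-seq counts of mouse T cells with reduced STAT5. They were chosen by name, as the rows Tbx21, Eomes, Id2, Prdm1, Zeb2, Nfil3, Bhlhe40, Runx3, Irf4 and Batf, and all 10 were found among the 24309 gene symbols of the CD8+ and CD4+ tables and the 24311 of the retrovirus table. The mice carried germline deletions in every cell: WT (Stat5a+/+ Stat5b+/+), AAB (Stat5a-/- Stat5b+/-, which keeps 1 allele of Stat5b) and BBA (Stat5a+/- Stat5b-/-, which keeps 1 allele of Stat5a). Cells were sorted from pooled lymph nodes and spleens as naive (Tnv, CD44low), central memory (Tcm, CD44high) or effector memory (Tem, CD44high) cells, by gates on surface proteins. The 48 CD8+ libraries hold 2 libraries of each genotype in 8 conditions, which are Tnv and Tcm in 3 cultures (no cytokine, IL-7, IL-15) and Tem in 2 (no cytokine, IL-15). The 15 naive CD4+ libraries used here are without cytokine (WT 3, AAB 2, BBA 2) or with IL-7 (WT 3, AAB 2, BBA 3). The 4 retrovirus libraries, 2 of each vector, are labelled as AAB CD8+ cells. By the study's methods, such cells were activated through CD3 and CD28 and transduced with a constitutively active STAT5A (CA-STAT5A) or with the empty vector. They were then cultured with IL-2 and sorted for the GFP that the vector carries. The cultures held IL-7 or IL-15, both of which signal through STAT5, and the labels give 12 to 16 h of culture and 20000 to 100000 cells per library. By the study's methods the cells without cytokine were processed directly after the sort, whereas the labels describe them as cultured, so that the effect of a cytokine and the effect of culture cannot be told apart. The study's methods give the mice as 8 to 16 weeks of age.

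Counts on genes were 5926139 to 25612758 per CD8+ library (median 12830672.5), 6705004 to 34118295 per CD4+ library and 11020965 to 16516525 per retrovirus library. Levels below are CPM, a gene's counts scaled to a library total of 1000000 counts on genes. By Xist and Y-linked genes, the libraries of Tnv with IL-7 and of all CD4+ groups were male, with a mix in Tcm with IL-7 (WT 2 male, AAB and BBA 1 male and 1 female each), 1 male and 1 female library in each retrovirus group and female libraries elsewhere. The targeted genes followed the labels: Stat5a was lower in all AAB libraries, and Stat5b in all BBA libraries, than in any WT library of the same condition, although BBA libraries kept reads on Stat5b. In the CD8+ table Cd8a was at 703 to 2019 CPM in all libraries, and in the CD4+ table at 0.588 to 8.90. Replicate 2 of WT Tnv with IL-15 stood apart with Cd4 at 238.6 CPM and with 4 regulatory T cell markers at a summed level of 335 CPM, against 62.2 in replicate 1. The 4 retrovirus libraries went against their CD8 label: Cd8a was at 1.39 to 3.17 CPM and Cd3e at 2.79 to 14.8, whereas Ncr1 and Klrb1c, markers of natural killer cells, were at 1122 to 1454 and 234 to 590 CPM, and Itgam, a marker shared by myeloid and natural killer cells, was at 290 to 1262. They are called the retrovirus libraries here, and no cell type is assigned to them.

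Effector and memory CD8+ T cells form under a small set of transcription factors that act on shared enhancers of cytotoxic, migratory and survival genes. T-bet (Tbx21) and EOMES are related T-box factors: T-bet leads terminal effector differentiation, and EOMES is prominent in memory cells and in the upkeep of their IL-15 receptor. RUNX3 silences Cd4 and upholds the cytotoxic program, and ID2 holds back E proteins and so favours effector over naive or memory-precursor programs. BLIMP-1 (Prdm1) and ZEB2 are repressors that promote terminal differentiation. NFIL3 is a basic leucine zipper factor needed for natural killer cell development, and BHLHE40 is a repressor linked to cytokine production and mitochondrial fitness. IRF4 and BATF bind DNA together downstream of the antigen receptor. STAT5 itself binds as a dimer to a motif named GAS, and IL-2, IL-7 and IL-15 are its main activators in T cells.

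The positions of the genes come from the GRCm38 annotation, and each position is a protein-coding gene from its first to its last annotated base. The T-box genes are Tbx21 at chr11:97098071-97115331 on the minus strand and Eomes at chr9:118478212-118486132 on the plus strand. Id2 lies at chr12:25093799-25097140 (minus strand) and Runx3 at chr4:135120652-135177990 (plus strand). Prdm1 spans chr10:44437177-44528501 and Zeb2 spans chr2:44983632-45117395, both on the minus strand. Nfil3 lies at chr13:52967209-52981073 (minus strand) and Bhlhe40 at chr6:108660629-108666925 (plus strand). Irf4 is at chr13:30749226-30766976 and Batf at chr12:85686669-85709087, both on the plus strand. Eomes, Zeb2, Bhlhe40 and Runx3 overlap annotated antisense genes, and as the use of strand in the counting is not stated, reads of those partners could be included in their counts.

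RefSeq promoter windows of GRCm38.p6 (250 bases before and 50 after a start site) matched 9 of the 10 genes, in 13 windows, and Bhlhe40 had no entry. The 5 shown are those of Eomes, Tbx21, Nfil3 and Prdm1, whose levels carry the genotype results below, and of Zeb2, the only one of the 9 genes with a match to the GAS motif. They are read on the gene's strand from 5′ to 3′, with matches to GAS (TTCNNNGAA, which reads the same on both strands) and to the GC box (GGGCGG or CCGCCC, the same site on either strand) in capitals. The windows are chr9:118477939-118478238 for Eomes (plus strand), chr11:97115282-97115581 for Tbx21, chr13:52980990-52981289 for Nfil3, chr10:44458699-44458998 for Prdm1 and chr2:45113230-45113529 for Zeb2 (minus strand).
Eomes: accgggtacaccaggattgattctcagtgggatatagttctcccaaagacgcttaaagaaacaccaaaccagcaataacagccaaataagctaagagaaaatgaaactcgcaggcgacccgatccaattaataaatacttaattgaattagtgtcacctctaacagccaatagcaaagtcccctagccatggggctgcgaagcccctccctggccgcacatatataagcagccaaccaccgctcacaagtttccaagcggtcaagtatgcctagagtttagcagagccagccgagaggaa
Tbx21: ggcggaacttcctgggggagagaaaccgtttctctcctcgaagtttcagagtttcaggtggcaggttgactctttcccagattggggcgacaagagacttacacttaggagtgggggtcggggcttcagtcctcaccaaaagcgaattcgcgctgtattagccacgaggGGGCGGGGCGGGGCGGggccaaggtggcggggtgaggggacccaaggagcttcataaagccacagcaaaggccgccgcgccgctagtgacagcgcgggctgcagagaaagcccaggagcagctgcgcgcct
Nfil3: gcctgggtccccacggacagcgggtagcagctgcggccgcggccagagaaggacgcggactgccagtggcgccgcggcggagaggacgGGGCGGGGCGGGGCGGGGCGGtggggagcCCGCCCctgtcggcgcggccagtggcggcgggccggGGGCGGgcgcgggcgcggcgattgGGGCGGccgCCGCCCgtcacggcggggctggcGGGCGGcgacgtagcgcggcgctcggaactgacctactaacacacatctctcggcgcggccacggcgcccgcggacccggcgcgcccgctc
Prdm1: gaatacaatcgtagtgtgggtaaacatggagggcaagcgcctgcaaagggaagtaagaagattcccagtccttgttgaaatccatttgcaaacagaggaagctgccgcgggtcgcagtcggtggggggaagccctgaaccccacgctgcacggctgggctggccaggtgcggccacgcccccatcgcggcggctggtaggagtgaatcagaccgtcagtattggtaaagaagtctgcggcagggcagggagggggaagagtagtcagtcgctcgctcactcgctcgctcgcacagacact
Zeb2: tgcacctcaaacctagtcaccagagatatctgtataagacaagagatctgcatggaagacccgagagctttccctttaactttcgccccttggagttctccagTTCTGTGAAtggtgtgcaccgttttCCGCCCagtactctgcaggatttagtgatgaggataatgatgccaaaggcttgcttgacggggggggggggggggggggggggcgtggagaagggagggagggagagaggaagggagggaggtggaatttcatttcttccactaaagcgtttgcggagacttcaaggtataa
Of all 32851 promoter windows in the table, 8.3% held a GAS match and 35.7% a GC box. Among the members, GAS was found in 2 overlapping windows of Zeb2, in this one 147 bases before the start site, and the GC box in 9 windows of 7 genes. The windows of Prdm1 and Zeb2 shown lie inside the annotated genes, at start sites downstream of the outermost one. A match is a description of letters and not a bound site.

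In WT cells the set was ordered by cell state, as the plot of levels per kilobase by state shows. Levels between genes are compared as CPM per kilobase of merged exons, as means ± SD of 2 WT libraries without cytokine. In Tnv, Id2 (67.9 ± 1.48) and Runx3 (48 ± 1.77) led, followed by Batf (17.7 ± 1.24) and Eomes (16.6 ± 0.856), which lay within each other's spread, and Tbx21 was at 1.36 ± 0.0704, Prdm1 at 0.468 ± 0.0344 and Zeb2 at 0.0921 ± 0.0149. In Tcm, Eomes led at 63.2 ± 0.382, ahead of Runx3 (48 ± 8.79) and Id2 (38.3 ± 3.31), which did not differ beyond their spread, then Tbx21 (26.1 ± 1.47) and Batf (21.3 ± 2.78). In Tem, Id2 was highest (89.5 ± 17.3), then Runx3 (63.7 ± 5.79), and Tbx21 (46.8 ± 5.82) and Eomes (43.6 ± 1.71) followed within each other's spread, as did Bhlhe40 (8.13 ± 1.89) and Irf4 (8.09 ± 0.292). Irf4, Nfil3, Bhlhe40, Prdm1 and Zeb2 made up the lower part of the order in Tnv and Tcm, with Tbx21 between Nfil3 and Bhlhe40 in Tnv, and Zeb2 was last in each state.

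**Figure D1:**
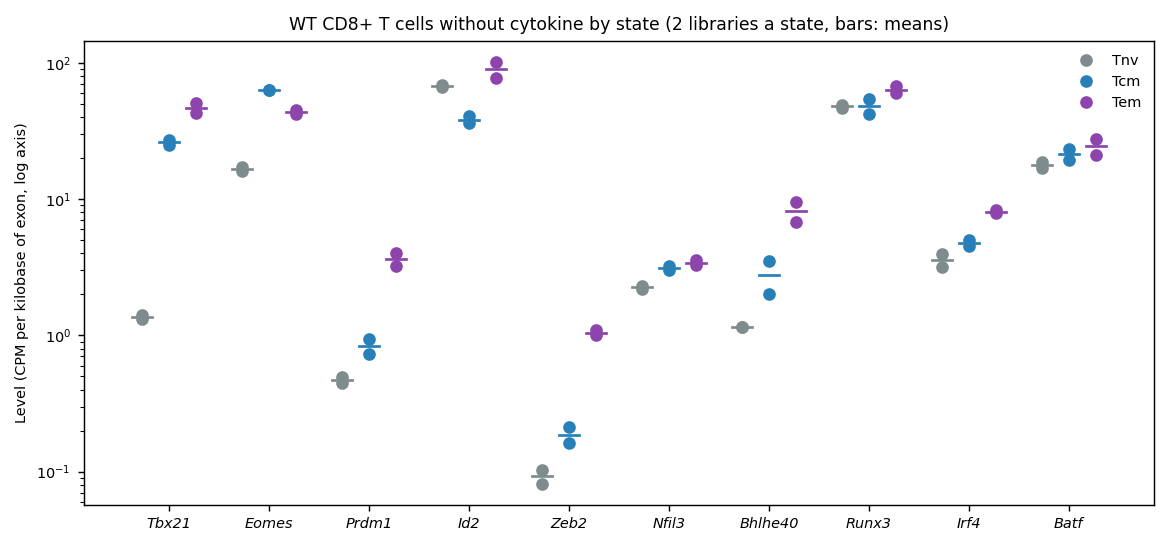
Levels of the 10 transcription factors in WT CD8+ cells without cytokine, as CPM per kilobase of exon on a log axis, for Tnv, Tcm and Tem. Points are the 2 libraries of a state and bars their mean; Tbx21 moves from the lower part of the Tnv order to the upper part in Tcm and Tem, and Zeb2 is lowest in all 3 states.

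Tbx21 showed the largest state difference of the set. Its level was 3.25 and 3.5 CPM in the Tnv libraries, 67.5 and 62.3 in Tcm and 127 and 106 in Tem, without overlap between the states. Against Tnv it was higher by a log2 fold change of 4.27 in Tcm (SE 0.16, adjusted p = 0.000315) and of 5.03 in Tem (SE 0.16, adjusted p = 5.65e-05), by the quasi-likelihood test of edgeR, and as for all p-values here the adjustment (Benjamini-Hochberg) ran over all genes tested. A gene was called, and is said to have risen or fallen, at more than 1.5-fold with an adjusted p under 0.05. Eomes peaked in Tcm, at 264 and 261 CPM against 66.6 and 71.6 in Tnv and 186 and 176 in Tem. It rose from Tnv to Tcm (log2 fold change 1.93, SE 0.10, adjusted p = 0.000837) and from Tnv to Tem (log2 fold change 1.32, SE 0.10, adjusted p = 0.000742), and was lower in Tem than in Tcm (log2 fold change -0.61, SE 0.10, adjusted p = 0.0342). Id2 ran the other way around: it was lowest in Tcm, at 99.1 and 87.7 CPM, against 163 and 168 in Tnv and 248 and 188 in Tem. It fell from Tnv to Tcm (log2 fold change -0.82, SE 0.16, adjusted p = 0.0465) and rose from Tcm to Tem (log2 fold change 1.15, SE 0.16, adjusted p = 0.0194). In these bulk libraries, fewer cells of a type and less RNA per cell cannot be told apart.

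The repressors BLIMP-1 (Prdm1) and ZEB2, which promote terminal differentiation, had their highest levels in Tem. Prdm1 stood at 22.3 and 18.1 CPM in Tem, above 4.1 and 5.27 in Tcm and 2.48 and 2.75 in Tnv, and rose over Tnv (log2 fold change 2.87, SE 0.22, adjusted p = 0.000742) and over Tcm (log2 fold change 2.01, SE 0.21, adjusted p = 0.00818). Zeb2 was at 19.9 and 21.7 CPM in Tem, 3.25 and 4.22 in Tcm and 1.63 and 2.05 in Tnv, and its rises were 3.42 over Tnv (adjusted p = 0.000467) and 2.38 over Tcm (adjusted p = 0.00589). Both genes had their 2 Tem libraries well above all libraries of the other states. Bhlhe40 rose from 5.38 and 5.44 CPM in Tnv to 32 and 44.6 in Tem (log2 fold change 2.75, SE 0.29, adjusted p = 0.00205), with Tcm between them at 9.52 and 16.5. Irf4 rose from 15.6 and 19.2 CPM in Tnv to 38.6 and 40.7 in Tem (log2 fold change 1.11, SE 0.14, adjusted p = 0.00436). Runx3, Nfil3 and Batf had no called difference between states, with log2 fold changes of 0.34, 0.53 and 0.39 for Tem over Tnv.

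By count, without cytokine 3 of the 10 members were called between Tcm and Tnv (2 higher, 1 lower), 6 between Tem and Tnv (all higher) and 5 between Tem and Tcm (4 higher, 1 lower), against backgrounds of 2.78%, 8.08% and 1.95% of all genes tested. Replicate 1 of Tem decided several of the calls between Tem and Tcm, since without it Id2, Prdm1 and Zeb2 had adjusted p-values of 0.0873, 0.0762 and 0.0544. The Eomes and Tbx21 calls between Tem and Tcm were each lost when any of 5 of the 6 libraries was left out (adjusted p = 0.0575 to 0.240 and 0.0505 to 0.222; the exceptions were Tcm replicate 2 for Eomes and Tcm replicate 1 for Tbx21), and the Id2 call between Tcm and Tnv without any of the 4 libraries of those states (adjusted p = 0.0589 to 0.261). The replicate numbers paired the libraries here, and with the replicate number as a block Bhlhe40 (1.28, adjusted p = 0.000238), Prdm1 (0.87, 0.0262) and Zeb2 (1.03, 0.0103) were called between Tcm and Tnv, as were Bhlhe40 (1.48, 1.5e-05) and Irf4 (0.69, 0.00117) between Tem and Tcm. Without Tcm replicate 1, Bhlhe40 passed the test between Tcm and Tnv (0.0244), and without Tcm replicate 2 between Tem and Tcm (0.0207). In 1 fit over all 48 libraries, the calls of Id2 between Tcm and Tnv (0.119), Irf4 between Tem and Tnv (0.172) and Eomes (0.541), Tbx21 (0.643) and Zeb2 (0.118) between Tem and Tcm were lost.

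With IL-15 the T-box genes kept their order of states, and Id2 was again lowest in Tcm. Tbx21 was at 0.574 and 4.57 CPM in the Tnv libraries, 48.6 and 46.3 in Tcm and 77.7 and 62.2 in Tem, and rose from Tnv to Tcm (log2 fold change 4.13, SE 0.62, adjusted p = 0.0169) and to Tem (log2 fold change 4.65, SE 0.63, adjusted p = 0.0248). The Tnv pair set the size: the log2 fold changes were 3.38 and 3.92 without Tnv replicate 1, and 6.32 and 6.86 without replicate 2, the library with high Cd4. Eomes rose by 2.30 in Tcm (adjusted p = 0.00313) and 1.81 in Tem (adjusted p = 0.00498), from 57.6 and 49 CPM in Tnv to 248 and 276 in Tcm and 205 and 177 in Tem. Id2 stood at 105 and 115 CPM in Tcm, under 311 and 237 in Tnv and 256 and 216 in Tem, a fall into Tcm (log2 fold change -1.31, SE 0.16, adjusted p = 0.0111) and a rise from Tcm to Tem (log2 fold change 1.06, SE 0.16, adjusted p = 0.0398). Prdm1 rose from 2.26 and 2.12 CPM in Tcm to 12.9 and 16.8 in Tem (log2 fold change 2.72, SE 0.46, adjusted p = 0.0488). The calls numbered 3 of 10 between Tcm and Tnv (background 7.54%), 2 between Tem and Tnv (2.88%) and 2 between Tem and Tcm (2.02%). The Tbx21 and Id2 calls against Tnv in Tcm were lost without either Tcm library, the Tbx21 call in Tem and the Id2 and Prdm1 calls between Tem and Tcm without any of the 4 memory libraries, with adjusted p = 0.0535 to 0.283 over these cases. Bhlhe40 was called in all 3 comparisons when a Tnv library was left out: without replicate 2 between Tcm and Tnv (0.00436), and without either between Tem and Tnv (0.0224 and 0.00147) and between Tem and Tcm (0.0177 and 0.0204). Without Tnv replicate 1, Prdm1 between Tcm and Tnv (0.0368) and Zeb2 between Tem and Tcm (0.0456) were called as well. With the replicate number as a block, Irf4 was also called between Tem and Tcm (1.22, adjusted p = 0.0411).
Over all 48 CD8+ libraries Tbx21, Zeb2 and Bhlhe40 varied most and Runx3 least, by the ratio of the highest to the lowest level. Tbx21 ran from 0.422 to 127 (median 31.6) CPM and Eomes from 18.8 to 575 (median 250.1). Zeb2 ran from 0.169 to 21.7 (median 3.29) CPM, Prdm1 from 2.07 to 22.3 (median 5.43) and Bhlhe40 from 1.23 to 91.8 (median 11.3). All 5 of these genes had a called difference between WT Tem and Tnv without cytokine. Runx3 ran from 186 to 378 (median 283) CPM, Id2 from 57.7 to 374 (median 165), Batf from 7.81 to 56.6 (median 24.8), Irf4 from 4.94 to 75.3 (median 22) and Nfil3 from 1.23 to 13.1 (median 4.59).

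**Figure D2:**
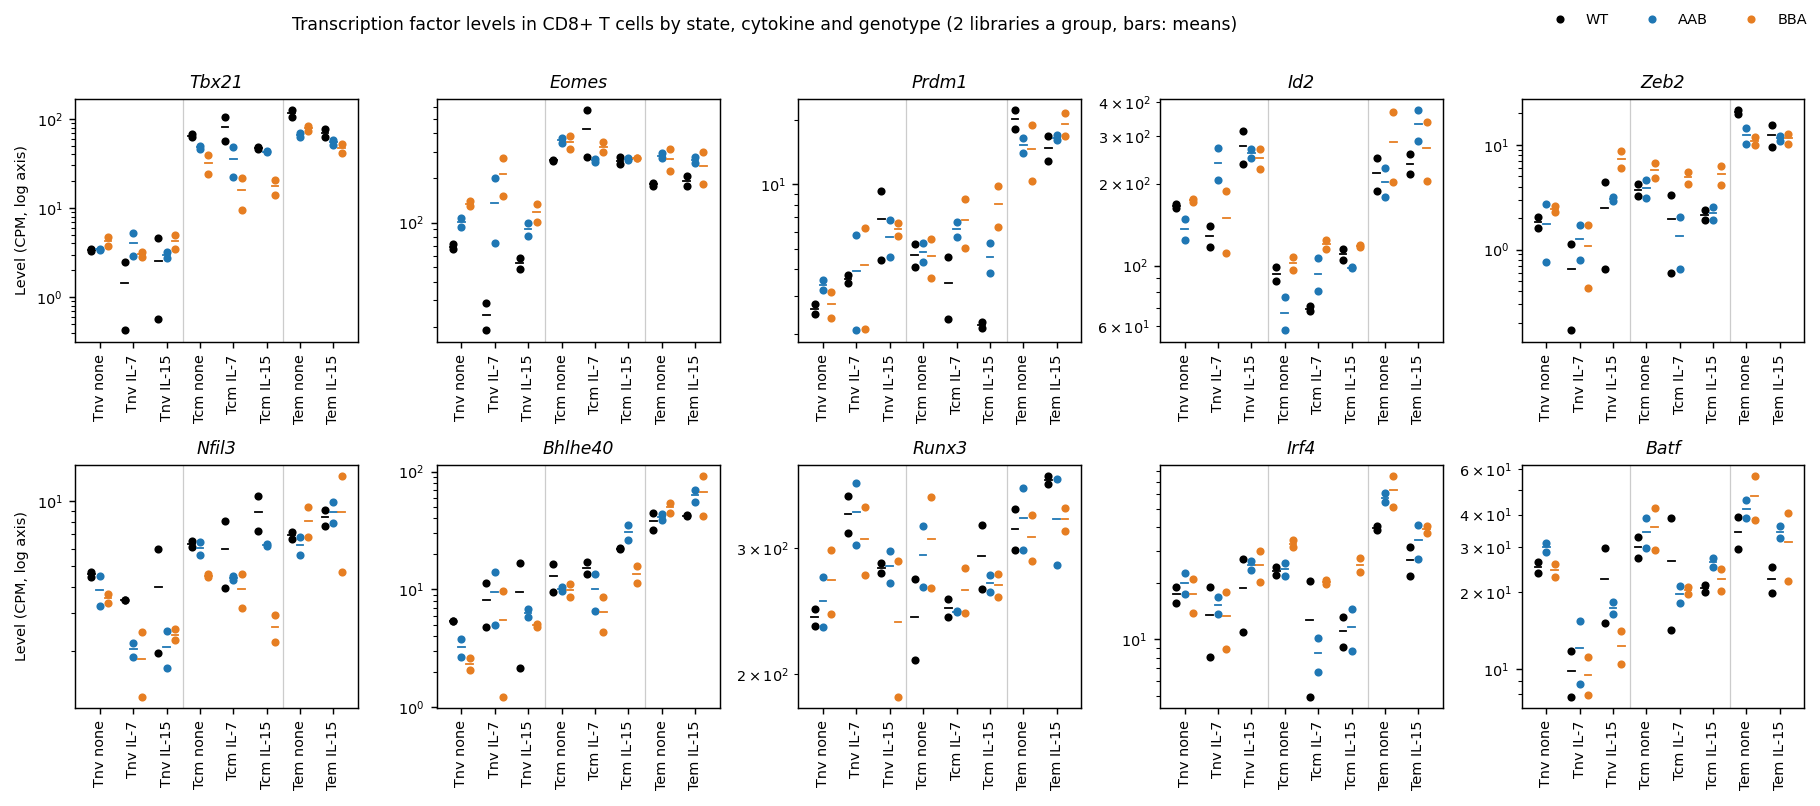
Level of each transcription factor in the 48 CD8+ libraries, in CPM on a log axis, by cell state and cytokine. Points are libraries and bars the means of 2, with WT in black, AAB in blue and BBA in orange; the Eomes panel shows WT below the deficient genotypes in all 3 Tnv conditions, and the Tbx21 panel shows BBA lowest in the 3 Tcm conditions.

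BBA cells differed from WT in the most members in Tcm with IL-15. There 5 of the 9 members tested were called between BBA and WT: Tbx21, Nfil3 and Bhlhe40 fell, and Prdm1 and Irf4 rose. In this condition 23.5% of all 9856 genes tested were called, so that the share of members stood beside a broad change of the transcriptome. Tbx21 was at 48.6 and 46.3 CPM in WT, 43.8 and 42 in AAB and 20.8 and 14.1 in BBA, with both BBA libraries below all others. Its log2 fold change, BBA over WT, was -1.52 (SE 0.17, adjusted p = 0.000886). Nfil3 ran at 10.5 and 7.28 CPM in WT, 6.29 and 6.16 in AAB and 2.96 and 2.21 in BBA, in 3 groups that did not overlap, and was lower in BBA (log2 fold change -1.87, SE 0.31, adjusted p = 0.00358). Bhlhe40, at 22.4 and 22 CPM in WT, 26.1 and 35.2 in AAB and 15.7 and 11.3 in BBA, was also lowest in BBA (log2 fold change -0.79, SE 0.20, adjusted p = 0.0181).

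Prdm1 and Irf4 rose in the same comparison. Prdm1, which encodes BLIMP-1, was at 2.26 and 2.12 CPM in WT, 5.31 and 3.86 in AAB and 9.82 and 6.3 in BBA, in 3 groups that did not overlap. The difference between BBA and WT was called (log2 fold change 1.79, SE 0.34, adjusted p = 0.00629). The filter on low counts keeps a gene by its highest library, which for Prdm1 was BBA replicate 1. Prdm1 had a test in 5 of the fits with a library left out, and in the other it did not pass the filter. Irf4 was at 9.16 and 13.2 CPM in WT, 8.71 and 14.6 in AAB and 23.1 and 27.3 in BBA, so that WT and AAB overlapped and BBA lay above both (log2 fold change 1.11, SE 0.27, adjusted p = 0.016). Eomes, at 248 and 276 CPM in WT and 271 and 273 in BBA, had a log2 fold change of -0.011 (SE 0.085). Id2 (0.032, SE 0.081), Runx3 (-0.20, SE 0.11) and Batf (0.043, SE 0.13) were not called either. Zeb2 did not pass the filter on low counts, with 1.92 and 2.37 CPM in WT, 2.56 and 1.93 in AAB and 6.34 and 4.18 in BBA, where BBA lay above the other genotypes.

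Markers of other cells moved along with these values in Tcm with IL-15. The summed level of 5 B cell markers was 90.6 and 171 CPM in WT, 70.6 and 197 in AAB and 205 and 423 in BBA, and that of the 5 of 6 myeloid markers found among the symbols was 12.6 and 9.95 in WT, 11.4 and 31.1 in AAB and 67.5 and 35.1 in BBA. The 4 dendritic cell markers summed to 4.41 and 2.25 CPM in WT and 16.3 and 14.1 in BBA. Cd44 and Il2rb, markers of memory and effector cells, summed to 1326 and 1271 in WT and 656 and 583 in BBA. Il2rb itself was called lower there, so that this sum cannot tell fewer memory cells from less of its RNA per cell. The 4 regulatory T cell markers summed to 58.3 and 57.8 CPM in WT, 37.5 and 43.9 in AAB and 89.3 and 70.1 in BBA, and 4 proliferation markers to 124 and 116, 74.9 and 144 and 88.7 and 52. Of the 14 B cell, myeloid and dendritic cell markers, Cd14 was at 0 in both WT libraries and no other was at 0 in any of the 6. Prdm1, Irf4 and Zeb2 are also expressed by B cells, myeloid cells, dendritic cells or regulatory T cells, and the part of these markers in the results was not tested. The Bhlhe40 call was lost without BBA replicate 2 (adjusted p = 0.106) or WT replicate 1 (0.0712), and the Irf4 call without the same libraries (0.0687 and 0.085). Both were also lost in 1 fit over all 48 libraries (adjusted p = 0.311 and 0.0767).

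**Figure D3:**
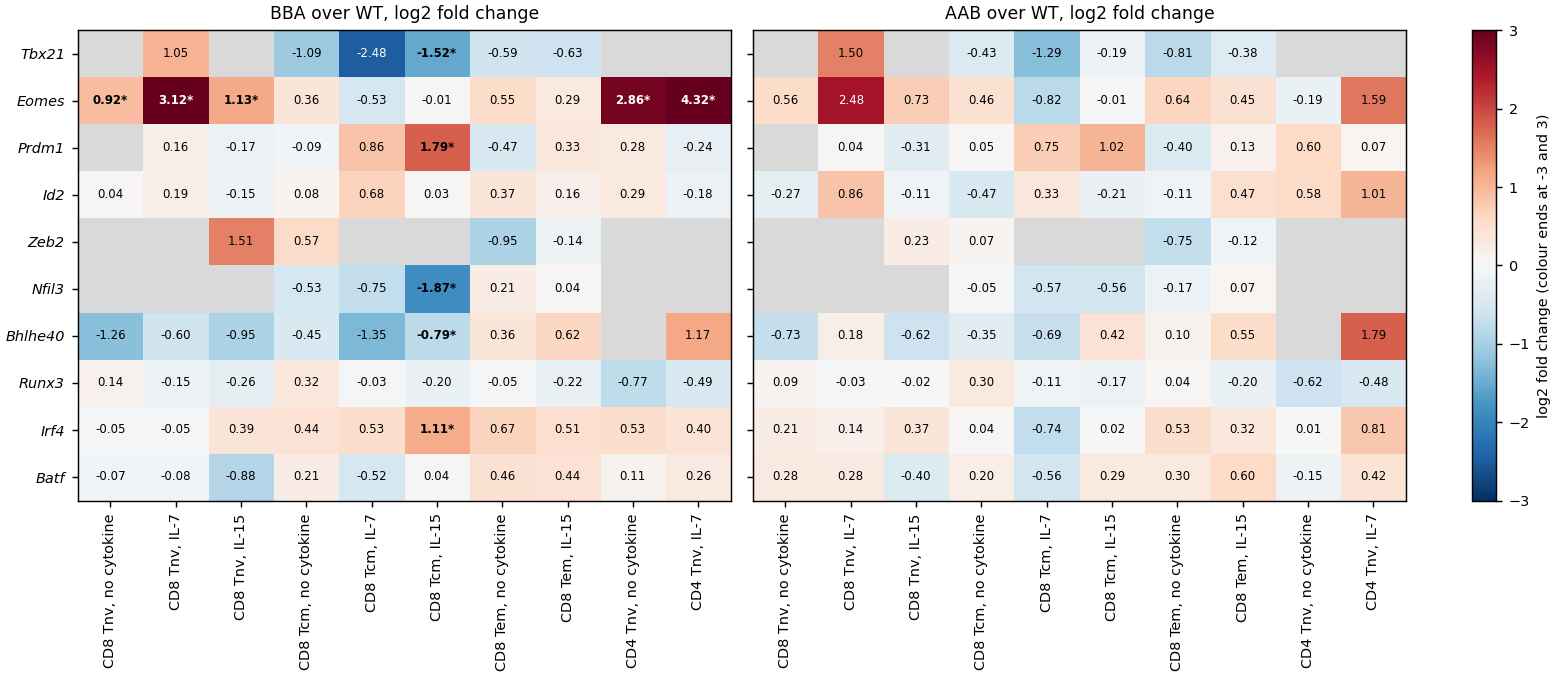
Log2 fold changes of the deficient genotype over WT, for BBA and AAB in 8 CD8+ and 2 CD4+ conditions (columns) and the 10 transcription factors (rows), from edgeR, with colours ending at 3 in either direction. Bold values with an asterisk were called and grey cells did not pass the filter on low counts; called values are Eomes in the naive BBA columns and 5 genes in BBA Tcm with IL-15, with 0 calls in AAB.

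Eomes was the member that rose in naive BBA cells, in each culture. Without cytokine it was at 66.6 and 71.6 CPM in WT, 93.5 and 108 in AAB and 139 and 129.5 in BBA, in 3 groups that did not overlap. The log2 fold change of BBA over WT was 0.92 (SE 0.10, adjusted p = 0.00484). With IL-15 the levels were 57.6 and 49 CPM in WT, 80.9 and 99.5 in AAB and 101 and 134 in BBA, with BBA again on top (log2 fold change 1.13, SE 0.17, adjusted p = 0.00785). With IL-7 WT stood at 18.8 and 29 CPM, AAB at 199.7 and 73.4 and BBA at 273 and 151, so that AAB and BBA overlapped, the replicates of each deficient genotype lay far apart and WT was below all of them (log2 fold change 3.12, SE 0.54, adjusted p = 0.0373). Eomes was the only member called in each of these comparisons, among 6 tested with no cytokine and 8 with each of IL-7 and IL-15, where 2.75%, 2.69% and 9.6% of all genes were called. With IL-7, summed B cell markers were at 8.75 to 15.4 CPM in WT and 30.4 to 51.6 in BBA, and regulatory T cell markers at 97.8 to 105 and 50.8 to 82.2. Natural killer cell markers overlapped (1.69 to 8.10 and 0.0723 to 11.6), but with IL-15 they were at 0.656 to 1.11 and 1.25 to 3.51. The part of these markers was not tested. The call without cytokine was lost without WT replicate 1 (adjusted p = 0.0527) and in 1 fit over all 48 libraries (0.254), and the call with IL-7 without any of the 4 WT and BBA libraries (0.0936 to 0.336). Without WT replicate 2, the library with high Cd4, the call with IL-15 stood.

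No other member of naive CD8+ cells was called between BBA and WT, although some fold changes were larger than those of Eomes. Bhlhe40 without cytokine was at 5.38 and 5.44 CPM in WT, 2.67 and 3.8 in AAB and 2.61 and 2.08 in BBA. WT was above the deficient genotypes with no overlap, and the difference between BBA and WT was not called (log2 fold change -1.26, SE 0.30, adjusted p = 0.063), but it was with the replicate number as a block, which paired the libraries here (-1.26, adjusted p = 0.0308). Tbx21 and Zeb2, at or under 8.75 CPM in all Tnv libraries, passed the filter in single conditions: Tbx21 with IL-7 (log2 fold change 1.05, SE 0.77, adjusted p = 0.54) and Zeb2 with IL-15 (log2 fold change 1.51, SE 0.75, adjusted p = 0.289). In Tnv with IL-15, myeloid markers summed to 6.81 and 12.4 CPM in WT and 89.8 and 46.3 in BBA, and dendritic cell markers to 2.3 and 4.69 and 22.6 and 17.5, and the part of these in the Zeb2 values was not tested. Without the WT library with high Cd4, Zeb2 with IL-15 passed the test (adjusted p = 0.0181). Irf4 did so as well (0.0444). Without the other WT library, replicate 1, Batf (0.0263) and Bhlhe40 (0.0228) passed it instead.

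In the remaining CD8+ conditions edgeR called 0 members between BBA and WT, of 10 tested in Tcm without cytokine (background 0.283%), 9 in Tcm with IL-7 (3.08%), 10 in Tem without cytokine (0.208%) and 10 in Tem with IL-15 (1.81%). Of these 39 tests, 11 had an unadjusted p under 0.05 and DESeq2 called 4: Tbx21 in Tcm without cytokine, with IL-7 and in Tem with IL-15, and Id2 in Tcm with IL-7. Tbx21 was lower in BBA in all of them. In Tcm without cytokine it was at 67.5 and 62.3 CPM in WT, 46.1 and 49.7 in AAB and 39.2 and 24.1 in BBA, with no overlap between the groups. The log2 fold change of BBA over WT was -1.09 (SE 0.22, adjusted p = 0.164), and it was called with the replicate block (-1.11, adjusted p = 0.00754). In Tem without cytokine Tbx21 was at 127 and 106 CPM in WT, above 69.8 and 63 in AAB and 83.6 and 72.8 in BBA (log2 fold change -0.59, SE 0.14, adjusted p = 0.202; with the block -0.59, adjusted p = 0.0153). In Tem with IL-15 the same gene was at 77.7 and 62.2 CPM in WT and 51.8 and 41.4 in BBA (log2 fold change -0.63, SE 0.18, adjusted p = 0.149; with the block adjusted p = 0.00496). Zeb2 in Tem without cytokine was at 19.9 and 21.7 CPM in WT, 14.5 and 10.1 in AAB and 11.9 and 9.89 in BBA, again with WT on top, and was called with the block (-0.96, adjusted p = 0.0455). Without BBA replicate 2 in that condition, Eomes and Irf4 were called higher in BBA (adjusted p = 0.0451 and 0.0334). Some markers of other cells were higher in BBA than in WT in Tcm with no cytokine and in Tem too. B cell markers overlapped between these genotypes there, and myeloid markers overlapped in Tem. In Tcm with no cytokine, the myeloid markers summed to 37.9 to 54.1 CPM in WT and 59.3 to 122 in BBA. The 4 regulatory T cell markers summed to 38.3 and 35.5 CPM in WT and 73.2 and 68.5 in BBA in Tcm with no cytokine, 66.8 and 68.9 in WT against 139.8 and 101 in BBA in Tem with no cytokine, and 88.5 and 95.8 in WT against 201 and 175 in BBA when Tem had IL-15. The 4 dendritic cell markers summed to 22.3 and 14.3 CPM in WT and 39.1 and 26.6 in BBA in Tem with no cytokine, and to 12.2 and 25 in WT against 41.4 and 35 in BBA with IL-15, while in Tcm with no cytokine the genotypes overlapped. The part of these markers in the results was not tested.

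Tcm with IL-7 rested on WT libraries that were far apart. Tbx21 was at 106 and 55.8 CPM in WT, 22.3 and 48.9 in AAB and 9.49 and 21.9 in BBA (log2 fold change -2.48, SE 0.56, adjusted p = 0.0623 for BBA over WT). Eomes was at 575 and 275 CPM in WT and 347 and 298 in BBA, with 1 WT library above and 1 below both BBA libraries. Batf, at 38.9 and 14.2 in WT and 19.7 and 21 in BBA, was split in the same way, and Irf4, at 20.6 and 4.94 and 19.8 and 20.9, had 1 WT library at the level of BBA and 1 far below. Without WT replicate 2, Tbx21, Eomes and Batf were called lower in BBA (adjusted p = 0.00816, 0.00207 and 0.00944), and without WT replicate 1, Irf4 was called higher (0.0302). Id2, at 70.7 and 67.9 CPM in WT and 124 and 115 in BBA without overlap (log2 fold change 0.68, SE 0.17, adjusted p = 0.0756), was called when either WT library was left out (0.0416 and 0.0496). Tbx21 was called lower in BBA with DESeq2, with another filter (filterByExpr), without a filter and in 1 fit over all 48 libraries. Sex differed between the libraries of this condition. With sex as a term the adjusted p-values of Tbx21 and Id2 were 0.14 and 0.221. Those of Eomes, Irf4 and Batf were between 0.510 and 0.794. Summed markers of B cells were at 18.3 to 37.2 CPM in WT and 156 to 269 in BBA. Those of dendritic cells were at 0.302 to 6.45 and 10.7 to 11, and of regulatory T cells at 31.7 to 46.1 and 57 to 94.4. Myeloid markers overlapped. Cd44 and Il2rb summed to 1387 to 1422 and 388 to 487, and Il2rb itself was called lower. The part of these markers was not tested.

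In AAB cells, which lack Stat5a and keep 1 allele of Stat5b, edgeR called 0 of the 70 tests of members against WT over the 8 CD8+ conditions. An unadjusted p under 0.05 was found in 16 of them, and DESeq2 called 5: Eomes in naive cells with either cytokine and in Tem without one, Id2 in Tnv with IL-7 and Tbx21 in Tem without cytokine. The backgrounds were 0.164%, 0.256% and 0.908% of genes called in Tnv with no cytokine, IL-7 and IL-15, 0.039%, 0.0589% and 4.45% in Tcm in the same order, and 0.0198% and 0.0199% in Tem with no cytokine and IL-15. Eomes in Tnv lay above WT in both AAB libraries of each culture, with log2 fold changes of 0.56 without cytokine (adjusted p = 0.124), 2.48 with IL-7 (0.179) and 0.73 with IL-15 (0.0944). With IL-7, Eomes was called in 1 fit over all 48 libraries, and leaving out AAB replicate 2 took its log2 fold change to 3.03. In Tcm with IL-15 Prdm1 was higher in both AAB libraries than in WT (log2 fold change 1.02, SE 0.34, adjusted p = 0.119) and was called with the replicate block (1.01, adjusted p = 0.0387). In Tem without cytokine Tbx21 (log2 fold change -0.81, SE 0.14, adjusted p = 0.137) and Eomes (log2 fold change 0.64, SE 0.17, adjusted p = 0.328) were called with the block, lower and higher in AAB in turn (adjusted p = 0.0105 and 0.0381). In Tcm with IL-7, Eomes (0.00126) and Batf (0.0109) and Irf4 (0.0206) passed the test, all lower in AAB, without WT replicate 2.

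The deficient genotypes were also compared with each other, as AAB over BBA, and differed in Tcm with IL-15. Tbx21 (log2 fold change 1.34, SE 0.17, adjusted p = 0.00925), Nfil3 (log2 fold change 1.31, SE 0.31, adjusted p = 0.0461) and Bhlhe40 (log2 fold change 1.22, SE 0.20, adjusted p = 0.0183) were higher in AAB, 3 of 9 members tested against a background of 5.84%. For these 3 genes AAB lay nearer to WT than BBA did, and the Bhlhe40 level of AAB was the highest of the 3 genotypes. Irf4 was lower in AAB just outside the limit (log2 fold change -1.09, SE 0.27, adjusted p = 0.0506) and was called with the replicate block (-1.12, adjusted p = 0.00313). Prdm1 did not differ beyond the limits between the deficient genotypes (log2 fold change -0.78, SE 0.32, adjusted p = 0.162). The Nfil3 call was lost on leaving out any library but WT replicate 2 (adjusted p = 0.0524 to 0.184), the Bhlhe40 call without AAB replicate 2 (0.0916) or BBA replicate 2 (0.0813), and all 3 in 1 fit over the 48 libraries (0.0997 for Tbx21, 0.105 for Nfil3 and 0.313 for Bhlhe40). In the other 7 conditions edgeR and DESeq2 each called 0 of 61 tests and 8 had an unadjusted p under 0.05, with backgrounds of 0.523%, 0.148% and 0.0699% in Tnv with no cytokine, IL-7 and IL-15, 0.039% and 0.0884% in Tcm with no cytokine and IL-7, and 0.0198% and 0.00997% in Tem with no cytokine and IL-15. Eomes in Tnv was lower in AAB than in BBA by -0.37 without cytokine (SE 0.10, adjusted p = 0.148), -0.63 with IL-7 (SE 0.49, 0.786) and -0.40 with IL-15 (SE 0.17, 0.728).

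Whether the effect of BBA depended on the cytokine was tested as an interaction, the BBA effect with the cytokine minus that without. Prdm1 in Tcm with IL-15 was the 1 call among the 10 members tested there (background 7.64%). Without cytokine its level was 4.1 and 5.27 CPM in WT and 5.54 and 3.63 in BBA, and with IL-15 2.26 and 2.12 and 9.82 and 6.3. The genotypes overlapped without cytokine and were apart with IL-15, where WT was lower and BBA higher than without it, and the interaction was 1.91 (SE 0.46, adjusted p = 0.0342). It was lost in 1 fit over all libraries (adjusted p = 0.0747) and on leaving out BBA replicate 1, WT replicate 1 or WT replicate 2 with IL-15, or BBA replicate 2 or WT replicate 2 without cytokine (0.0939 to 0.120). Nfil3 had the opposite sign, -1.31 (SE 0.37, adjusted p = 0.0566), and was called with the replicate block (adjusted p = 0.0261). The Tbx21 interaction in Tcm was -0.41 (SE 0.30, adjusted p = 0.471), so that its call with IL-15 and not without does not show a difference between the cultures. In the other 4 interactions edgeR called 0 of 36 tests, 2 had an unadjusted p under 0.05 and DESeq2 called 1, Eomes in Tnv with IL-7, with backgrounds of 2.42% in Tnv and 0.00966% in Tem with IL-15, and 2.46% in Tnv and 0.114% in Tcm with IL-7. That Eomes interaction was 2.21 (SE 0.58, adjusted p = 0.0784), sex changed with the culture in it, and it passed the test without AAB replicate 1 or 2 with IL-7 (0.0106 and 0.0104). Other interactions moved with left-out libraries as well. Without WT replicate 2 with IL-7, that of Eomes in Tcm with IL-7 went from -0.89 to -1.37. Sex differed there between cultures and between genotypes. Without WT replicate 1 with IL-15, that of Batf in Tnv with IL-15 went from -0.79 to -1.18.

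In WT CD8+ cells, 3 of 44 tests of members between a cytokine and no cytokine were called, with the backgrounds given by condition. In naive CD8+ cells with IL-7, 2 of 7 members tested fell (background 20.3%). Eomes dropped from 66.6 and 71.6 CPM without cytokine to 18.8 and 29 (log2 fold change -1.63, SE 0.20, adjusted p = 0.00203), and Batf from 26.2 and 23.7 to 11.8 and 7.81 (log2 fold change -1.44, SE 0.33, adjusted p = 0.0171). Neither gene's groups overlapped. The Batf call was lost without IL-7 replicate 2 or either library without cytokine (adjusted p = 0.0699 to 0.109). Runx3 was higher with IL-7, at 314 and 354 CPM against 234 and 246, with a log2 fold change of 0.38 (adjusted p = 0.0178) that was under the fold limit. With IL-15, Id2 rose in Tnv from 163 and 168 CPM to 311 and 237 (log2 fold change 0.66, SE 0.15, adjusted p = 0.0397), 1 of 7 members against a background of 6.15%. That call was lost in 1 fit over all 48 libraries (adjusted p = 0.128) and on leaving out any library of the fit but IL-15 replicate 2, the library with high Cd4 (adjusted p up to 0.201, and under the fold limit without IL-15 replicate 1). That library was also the higher of the pair in Tbx21, Prdm1, Zeb2, Nfil3, Bhlhe40, Irf4 and Batf: Bhlhe40 was at 2.13 and 16.8 CPM in the 2 libraries, and without replicate 2 its log2 fold change with IL-15 turned from 0.75 to −1.40. Without replicate 1 instead, Bhlhe40 and Prdm1 passed the test as higher with IL-15 (adjusted p = 0.0339 and 0.0107). The WT libraries with IL-7 were male and those without cytokine female in both Tnv and Tcm, so that sex and IL-7 cannot be told apart.

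In WT memory cells edgeR called 0 of 30 tests, 6 had an unadjusted p under 0.05 and DESeq2 called 1, Tbx21 in Tem. The backgrounds were 0.381% in Tcm with IL-7, 0% in Tcm with IL-15 and 1.53% in Tem with IL-15. Tbx21 in Tem was at 127 and 106 CPM without cytokine and 77.7 and 62.2 with IL-15, without overlap (log2 fold change -0.77, SE 0.15, adjusted p = 0.0877). Zeb2 (-0.78), Irf4 (-0.61) and Batf (-0.65) also had negative log2 fold changes there, and their groups did not overlap. These tests moved with left-out libraries: Tbx21 passed the test without either IL-15 library (1.54e-05 and 0.0206), Zeb2 and Irf4 without IL-15 replicate 2 (0.00106 and 0.00314) and Batf without IL-15 replicate 1 (0.00159), each in a fit where the lone IL-15 library is taken to vary like the pair without cytokine. In Tcm with IL-15 the largest values were those of Prdm1 (log2 fold change -1.19, SE 0.42, adjusted p = 0.349) and Irf4 (log2 fold change -1.16, SE 0.61, adjusted p = 0.496), both with lower levels in both IL-15 libraries. The Irf4 value passed the test without either of the widely spread WT IL-7 libraries of that fit (adjusted p = 0.0233 and 0.0218). In Tcm with IL-7, Irf4 was called lower without IL-7 replicate 1 (0.0051), and Batf (0.0233, lower) without the same library and Eomes (0.0286, higher) without replicate 2.

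In naive CD4+ cells of WT mice, compared as 3 libraries against 3, 5 of 8 members tested changed with IL-7 against a background of 16.8%. Bhlhe40 rose from 1.81, 0.987 and 1.29 CPM in the 3 libraries without cytokine to 6.71, 8.32 and 15.7 in the 3 with IL-7 (log2 fold change 2.87, SE 0.38, adjusted p = 0.000567). Prdm1 rose from 7.61, 10.2 and 7.59 CPM to 26.7, 24.6 and 25 (log2 fold change 1.54, SE 0.14, adjusted p = 6.27e-05). Both genes' groups were apart, and Prdm1 was the tighter of them. Eomes fell from 6.16, 4.61 and 5.35 CPM to 0.447, 1.32 and 1.2 (log2 fold change -2.33, SE 0.35, adjusted p = 0.00105), and Batf from 21.6, 24.8 and 27 to 9.69, 10.3 and 10.5 (log2 fold change -1.31, SE 0.13, adjusted p = 0.000134). Eomes and Batf thus fell in naive cells of both lineages with IL-7. Id2 rose from 64.8, 70.2 and 53.5 CPM to 139, 85.8 and 75.5 (log2 fold change 0.62, SE 0.20, adjusted p = 0.0416), without overlap, but the replicate block brought it to 0.57, under the fold limit, and leaving out IL-7 replicate 1 or any library without cytokine took its adjusted p to 0.0618 to 0.0955. In 1 fit over all libraries its adjusted p was 0.164. Nfil3 (log2 fold change 0.71, SE 0.32, adjusted p = 0.117) and Runx3 (log2 fold change -0.55, SE 0.27, adjusted p = 0.144) passed the test only when replicate 3 and replicate 2 without cytokine, in turn, were left out (0.043 and 0.0412). Tbx21 and Zeb2 did not pass the filter, at or under 0.406 CPM in all 6 libraries.

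Between genotypes, Eomes was again the member that rose in naive CD4+ cells of BBA mice. Without cytokine it was at 6.16, 4.61 and 5.35 CPM in WT, 3.34 and 6.13 in AAB and 21.9 and 57.4 in BBA (log2 fold change 2.86, SE 0.39, adjusted p = 0.0121 for BBA over WT). With IL-7 it was at 0.447, 1.32 and 1.2 CPM in WT, 3 and 3.86 in AAB and 25.2, 28.5 and 14.8 in BBA (log2 fold change 4.32, SE 0.35, adjusted p = 0.000124). BBA lay above both other genotypes in each condition, and with IL-7 AAB lay between WT and BBA. Eomes was the 1 call of 6 members without cytokine (background 1.12%) and of 7 with IL-7 (5.52%). The call without cytokine was lost without BBA replicate 2 (adjusted p = 0.0703) or WT replicate 2 (0.0647), and that with IL-7 stood without each library in turn. The size without cytokine was 1.98 without BBA replicate 2. In the BBA libraries with IL-7, 4 natural killer cell markers summed to 1.17, 0.735 and 9.08 CPM against 0, 0.234 and 0.185 in WT, and 5 B cell markers to 57.2, 13.1 and 26.5 against 9.84, 8.12 and 6.1. In BBA replicates 1 and 2, 3 of the 4 natural killer cell markers (Ncr1, Klra8 and Klra9) were at 0. Eomes is expressed by natural killer cells too, and the part of these markers was not tested. In AAB edgeR called 0 of 13 tests (backgrounds 0.367% without cytokine and 0.601% with IL-7), while 6 had an unadjusted p under 0.05 and DESeq2 called 1, Eomes with IL-7 (log2 fold change 1.59, SE 0.41, adjusted p = 0.158 in edgeR). Bhlhe40 with IL-7 was at 6.71, 8.32 and 15.7 CPM in WT, 48.1 and 24.3 in AAB and 37.4, 23.3 and 9.17 in BBA, with overlap between WT and BBA (log2 fold change 1.17, SE 0.50, adjusted p = 0.171). Runx3, whose product represses Cd4, was at 107, 82.7 and 99.3 CPM in WT, 67.5 and 72.2 in AAB and 84.9, 68.3 and 54.6 in BBA (log2 fold change -0.49, SE 0.15, adjusted p = 0.0717), and the difference passed the test without BBA replicate 1 (0.0227).

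**Figure D4:**
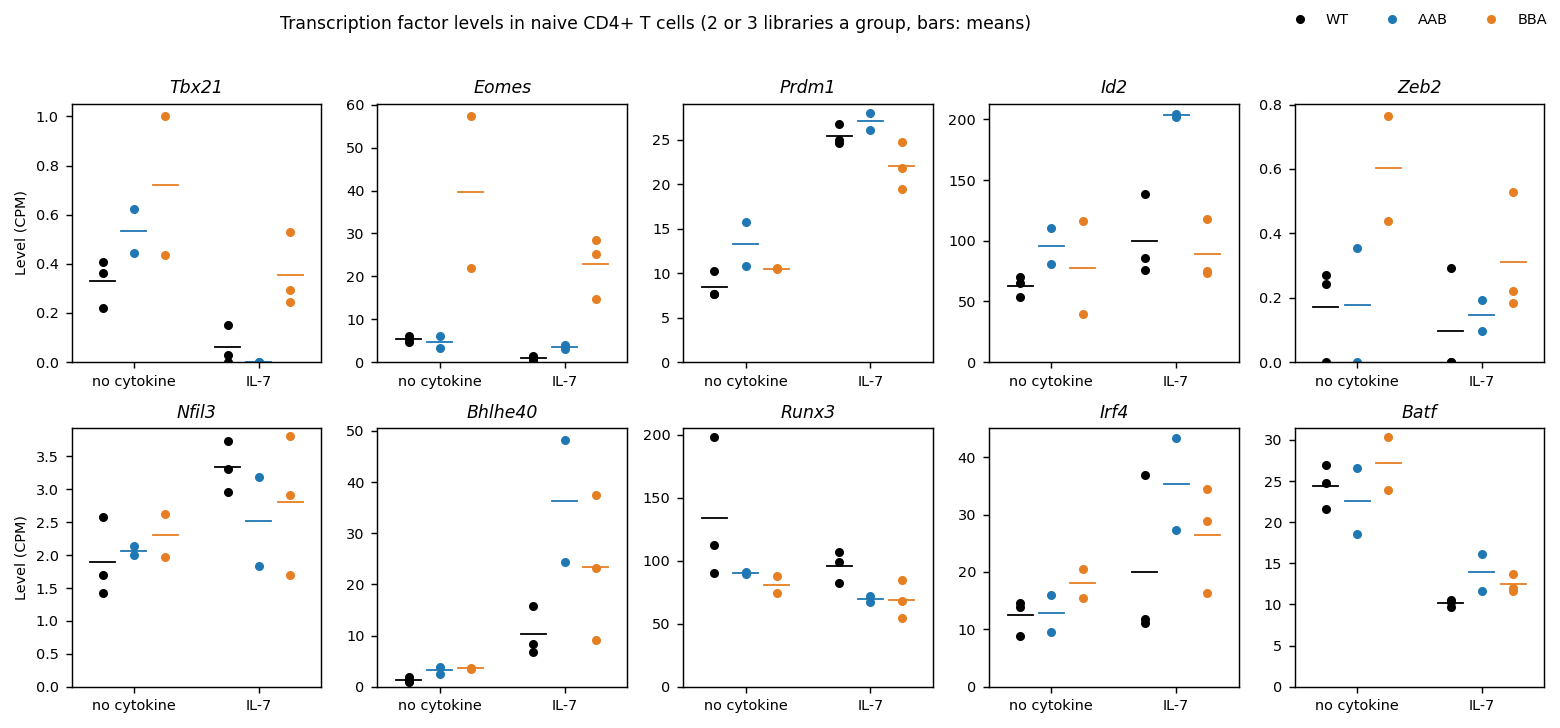
Level of each transcription factor in 15 naive CD4+ libraries, in CPM on linear axes that differ between panels, without cytokine and with IL-7. Points are libraries and bars group means, with WT in black, AAB in blue and BBA in orange; in the Eomes panel the BBA libraries are the highest in both conditions.

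In the retrovirus libraries, 4 of the 10 members were called between CA-STAT5A and the empty vector (background 6.63%). Prdm1 was at 221 and 199 CPM with CA-STAT5A and 90.3 and 63.9 with the empty vector (log2 fold change 1.47, SE 0.18, adjusted p = 0.00765). Zeb2 was at 356 and 316 and 132 and 122 CPM (log2 fold change 1.43, SE 0.12, adjusted p = 0.00466), and Bhlhe40 at 388 and 315 and 206 and 233 (log2 fold change 0.70, SE 0.14, adjusted p = 0.0362). All 3 rose, and their groups did not overlap. Irf4 fell, from 22.9 and 25 CPM with the empty vector to 8.05 and 7.62 (log2 fold change -1.59, SE 0.17, adjusted p = 0.0059). Batf, its partner, was also lower in both CA-STAT5A libraries, 24.6 and 30.4 CPM against 38.9 and 48.9 (log2 fold change -0.65, SE 0.18, adjusted p = 0.0933), and was called with the sex of the library as a term (0.0491) or without empty vector replicate 1 (0.0272). The T-box genes were high in both groups, Tbx21 at 602 and 490.1 and 384 and 464 CPM and Eomes at 721 and 804 and 761 and 747, with log2 fold changes of 0.39 (SE 0.16) and 0.04 (SE 0.13). Id2 (0.35), Nfil3 (0.14) and Runx3 (-0.062) were not called. The Bhlhe40 call was lost without CA-STAT5A replicate 1 (0.159) or empty vector replicate 1 (0.0923). The makeup of the libraries moved with the vector: 5 T cell markers summed to 22 and 40.6 CPM with CA-STAT5A and 87.4 and 149 with the empty vector, 5 myeloid markers to 1301 and 1146 and 647 and 486, 5 B cell markers to 9.32 and 25.5 and 146 and 90.9, and 4 natural killer cell markers to 1730.1 and 1836 and 1818 and 1661. The part of these in the results was not tested, and as the T cell markers are low, the values cannot be read as those of CD8+ T cells.

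**Figure D5:**
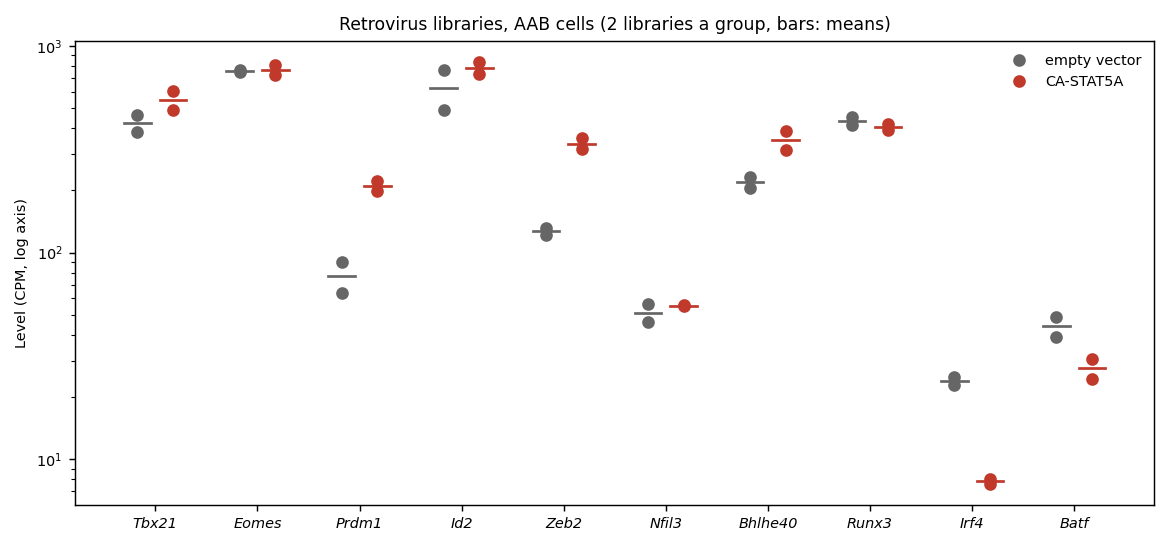
Level of each transcription factor in the 4 retrovirus libraries, in CPM on a log axis, with CA-STAT5A or the empty vector. Points are libraries and bars means of 2; Prdm1, Zeb2 and Bhlhe40 are higher and Irf4 lower in both CA-STAT5A libraries, and the Tbx21 and Eomes values are at 384 CPM or higher in all 4.

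Other genes of the same circuits were followed as 2 lists, 25 relatives and binding partners of the factors and 18 genes known as their targets. In Tcm with IL-15, 21 of the relatives were tested between BBA and WT, of which 6 rose and 1 fell, beside 23.5% of all genes called (median log2 fold change 0.435, against 0.00311 over all genes tested and −0.011 over the 9 members). Those that rose were Bcl6 (1.93), which opposes BLIMP-1, Tcf4 (1.64), an E protein prominent in plasmacytoid dendritic cells, Tcf7 (0.85) and Lef1 (0.79), factors of naive and memory cells, Runx1 (0.79) and Gata3 (0.59). Fosl2 fell (-0.71). Of 14 targets tested 3 rose and 3 fell (median 0.163). The chemokine receptor gene Cx3cr1 (2.49), Il7r (1.31), which encodes the IL-7 receptor chain, and S1pr1 (0.69) rose. Gzmb (-3.69), which encodes granzyme B, Il2rb (-1.29), the receptor chain for IL-15, and Bcl2 (-1.82) fell. The paper names Bcl2 and Gzmb as targets of STAT5, and the part of the listed factors in these changes was not tested. B cell, myeloid and dendritic cell markers were higher in BBA in this condition, and their part was not tested either. In AAB there, 1 relative rose and 0 fell, and 2 targets rose and 2 fell, beside 4.45% of all genes.

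Between WT states without cytokine, 9 of 17 targets rose and 3 fell in Tem against Tnv (median 1.94), and 3 of 21 relatives rose and 2 fell (median −0.108), beside 8.08% of all genes called. Those that rose include Ccl5 (8.34), Gzmb (5.59), Ifng (4.38) and Cx3cr1 (4.29), genes of effector function and migration, and those that fell include Ccr7 (-0.97) and S1pr1 (-0.66), genes of lymph node homing and exit. With IL-7, naive WT cells lowered 8 relatives and raised 1 in CD8+ cells (21 tested, median −0.556) and lowered 8 and raised 3 in CD4+ cells (20 tested, median −0.23), beside 20.3% and 16.8% of all genes called. Those lowered in CD8+ cells include Jun (-4.17), Junb (-3.23) and Jund (-1.67), which encode AP-1 partners of BATF, and in CD4+ cells the values were -4.25, -2.80 and -0.68. In the retrovirus libraries 8 of 15 targets rose and 3 fell (median 1.04), with Gzmb at 3.86 and Cx3cr1 at 3.59 among the rises, and 1 of 22 relatives rose and 4 fell, beside 6.63% of all genes called.

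The genes whose levels were most like a member's over the 24 CD8+ groups were found by Pearson's r of group mean log2 levels, among 9948 genes with a mean of at least 5 CPM. For Tbx21 they were Sntb2 (r = 0.955) and Slamf7 (0.953), and for Eomes Tmevpg1 (0.958) and Samd3 (0.913). Prdm1 was most like Slc22a15 (0.939) and Cd101 (0.931), and Zeb2 most like Myadm (0.943) and Cntnap1 (0.932). For Bhlhe40 they were Ptpn9 (0.944) and Whsc1 (0.938), for Irf4 Cd83 (0.911) and Rgs16 (0.901), for Batf Coro1b (0.939) and Zap70 (0.938), and for Nfil3 Rasa4 (0.899) and Bag3 (0.879). Id2 (Zfp839, 0.888, and Ankrd12, 0.849) and Runx3 (Dennd5a, 0.800, and Rnf19b, 0.791) had the weakest matches. Among the members the closest pairs were Irf4 with Zeb2 (0.852), Prdm1 with Zeb2 (0.835) and Tbx21 with Eomes (0.813). The groups share libraries, sort gates and cultures, so that these values describe these data and have no test.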

How the data were processed

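Poly(A) RNA of sorted T cells was sequenced, and the authors deposited whole-number counts of reads per gene symbol, not normalized, in 3 tables (CD8+, CD4+ and retrovirus libraries). By the study's methods, 50-base single-end reads were aligned to mm10 with tophat2 (2.1.1) and counted with htseq-count (2.0.3), with cufflinks also named, whereas the submitters' processing notes list mm9 beside TopHat2, Cufflinks and HTSeq. Since the tables hold no coordinates, the build does not enter the values. The gene models counted and whether strand was used are not given in the sources used here. In the retrovirus table, rows that name no gene held 67.0% to 68.4% of the counts and were left out. All sample columns were used (0 were not), and of 69 samples, 67 were in a group and 2 in none, since their title and treatment labels contradict each other.

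Genes were filtered by a re-implementation of the Jaccard filter of HTSFilter, which chose the limit on normalized counts from 100 values between 1 and 200 (loess span 0.3). A gene was kept when at least 1 library of the fit exceeded the limit, and a member outside the filter has no test. Tests were edgeR (4.0.16, R 4.3.3) quasi-likelihood tests in the older form, with TMM normalization and, unless stated, 1 fit for each condition. A call required more than 1.5-fold and a Benjamini-Hochberg adjusted p under 0.05 over all genes tested, never over the members alone. Levels are CPM on total gene counts, and per-kb levels are CPM divided by the exon length of the gene in kb. That plain scaling replaced CPM on TMM-scaled totals of the whole table after the data were seen. Between the table-wide TMM and the TMM of a fit, the median of all genes moved by up to 0.303 on the log2 scale and by over 0.1 in 15 of 46 comparisons. Between plain totals and the fit it moved by up to 0.11, and by over 0.1 in 1 comparison (BBA against WT in Tcm with IL-7).

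On simulated counts with 200 changed genes, the tests called 94% of 2-fold and 100% of 4-fold changes for BBA against WT in Tcm with IL-15 (10336 genes), 85% and 100% for IL-7 in WT Tnv (10930 genes), and 71% and 99% for CA-STAT5A (10310 genes). Among the 206, 194 and 174 genes called in turn, 12, 9 and 4 had not been changed. The simulation gave all genes of a fit the same spread between libraries (coefficient of variation 11.94%, 14.01% and 15.66% in turn), without pairing. In other fits the common spread reached 28.79%. The shares called hold for these settings only, and do not show that members without a call were unchanged. Replicate counts differed by more than sampling noise in all 38 pairs (chi-square per degree of freedom 5.75 to 101). The labels do not tie each library to an animal, while the study's checklist gives 2 or 3 mice per group, so the p-values measure the spread between these libraries.

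The members and the lists were chosen with earlier results of these data known. All 10 members were named in each comparison, and other genes only as the 2 most like each member over the 24 CD8+ group means, as partners or targets from set lists, or as Stat5a and Stat5b. Same-numbered libraries of a condition deviated together, with correlations of 0.121 to 0.77 in every pair of genotypes in all CD8+ conditions but Tcm with IL-7 (−0.0356 to 0.283). They were 0.198 to 0.509 in CD4+ cells, 0.49 to 0.659 between WT states without cytokine and 0.149 to 0.237 between them with IL-15. A replicate block was therefore used as the alternative in those fits, and its value stands beside a result where it changed a call. Other alternatives were filterByExpr or no filter, DESeq2 size factors, DESeq2 (1.42.0), the edgeR 4 form of the test, Bonferroni, a 2-fold limit, 1 fit over all libraries of a lineage, sex as a term in Tcm with IL-7, and each library left out in turn. Sex as a term for CA-STAT5A, and a block within each culture, were added after the data were seen. Promoter windows (250 bases before to 50 after each start) are from RefSeq. The values of 1 gene of the target list are not reported here.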

Additional observations from a re-analysis of the deposited data

Results flagged for a closer look

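The change of Prdm1 between BBA and WT in Tcm was itself different between the cultures, by 1.91 on the log2 scale between IL-15 and no cytokine (edgeR quasi-likelihood test of the interaction, adjusted p = 0.0342). This test of the difference is what singled it out, as 1 of the 46 member interactions that could be tested. Over all genes, 1316 calls were made in the same 5 interactions. In the interaction of Tcm with IL-15, 800 of 10469 genes tested (7.64%) were called. The 1 member call therefore does not set the members apart from other genes. Its levels in each library, and the fits in which it was lost, stand with the result above. In groups of 2 or 3 libraries, no library could be tested for standing apart from its group.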

How the results depend on the processing

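Over the 46 comparisons 47 tests of members passed the limits, and none of these calls changed direction under any alternative run. DESeq2 and the fit without a filter kept all 47 calls (and added 21 and 53), DESeq2 size factors and the edgeR 4 form 46, filterByExpr 45, the 2-fold limit 39 and Bonferroni 10. The fit over all libraries of a lineage kept 29 of 43, and leaving out libraries 212 of 282. Without a filter, the counts were 20 in place of 8 for BBA and 5 in place of 0 for AAB against WT in CD8+ cells, 9 in place of 3 for AAB against BBA, 4 in place of 2 and 2 in place of 0 for BBA and AAB in CD4+ cells, 10 in place of 3 for cytokines in WT CD8+ cells, 34 in place of 21 for cell states and 4 in place of 1 for the interactions. With DESeq2 they were 13 for BBA and 5 for AAB in CD8+ cells, 1 for AAB in CD4+ cells and 3 for the interactions. The numbers of all genes called rose in these cases too. In CD8+ cells they were 4361 for BBA and 586 for AAB against WT in the main fits. Without a filter they were 17029 and 4346, and with DESeq2 7130 and 2117. Bonferroni left 0 for BBA, 0 for AAB against BBA, 0 for cytokines in WT CD8+ cells, 0 interactions, 0 for CA-STAT5A, 1 for BBA and 2 of 5 for IL-7 in CD4+ cells, and 7 for cell states. The fit over a lineage gave 1 for AAB against WT and 0 for AAB against BBA, and filterByExpr gave 2 interactions. That lineage fit also added 6 calls. With IL-7 they were Tbx21 in Tcm (BBA against WT), Eomes in Tnv (AAB against WT) and the Eomes interaction in Tnv. Between WT states with IL-15 they were Prdm1 (Tcm and Tnv), Bhlhe40 (Tem and Tnv) and Zeb2 (Tem and Tcm). The causes were not tested.

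With the replicate number as a block, 42 of 43 calls were kept and 20 gained, and the totals became 13 for BBA and 3 for AAB against WT in CD8+ cells, 7 for cytokines in WT CD8+ cells, and 2 interactions (4 with the block within each culture). All genes called became 7056 for BBA and 1610 for AAB in place of 4361 and 586. They became 3354 for cytokines in place of 2793 and 2463 for the interactions in place of 1316. In the other comparisons that have the block, the count of calls moved by less than 1.5 times. In WT cells compared between cultures the numbers did not pair all libraries (correlations −0.00184 to 0.351 in Tnv, 0.0933 to 0.638 in Tcm, 0.338 in the only pair of Tem). In Tem the block made Tbx21 (−0.78), Zeb2 (−0.81), Batf (−0.65) and Irf4 (−0.63) calls with IL-15. The numbers could not pair the CA-STAT5A libraries, because 1 carries none. With sex as a term, which pairs 1 male and 1 female library of each vector, 5 members were called in place of 4.

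Leaving out 1 library at a time gave 6 to 12 calls for BBA and 0 to 3 for AAB against WT in CD8+ cells, 1 to 3 for AAB against BBA, 1 to 3 for BBA and 0 to 0 for AAB in CD4+ cells, 1 to 6 for cytokines in WT CD8+ cells, 4 to 5 in WT CD4+ cells, 16 to 25 for states, 0 to 2 interactions and 3 to 4 for CA-STAT5A. Values that were no calls turned sign when a library was left out. In Tcm with IL-7 against WT, BBA ranged from −1.01 to 0.20 for Eomes, −0.19 to 2.01 for Irf4 and −1.10 to 0.49 for Batf, and AAB from −1.16 to 0.44 for Batf and −1.47 to 0.73 for Irf4. Irf4 of BBA in Tnv with IL-15 ranged from −0.10 to 1.15. With cytokine in WT cells the ranges were −1.40 to 1.55 for Bhlhe40 (Tnv, IL-15), −1.19 to 0.42 for Batf and −0.043 to 1.17 for Eomes (Tcm, IL-7), and −0.14 to 0.95 for Irf4 (CD4+, IL-7).

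With 2 or 3 libraries a group, a call often rested on each of them, and a member outside the limits is not shown to be unchanged. Members with few counts, such as Nfil3, Zeb2 and Tbx21 in naive cells, fell under the filter in some fits, so that their counts of calls cover fewer conditions.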

Other observations

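The 2 CD4+ libraries whose labels contradict each other on the cytokine entered no comparison. The AAB and the BBA library of that kind held Eomes at 8.6 and 26.1 CPM, Prdm1 at 11 and 8.21, and Bhlhe40 at 3.34 and 2.15. Id2 was at 96.6 and 81.1 CPM in them and Runx3 at 114 and 68.9. Irf4 was at 16.3 and 17.2, Batf at 31.2 and 32, and Nfil3 at 1.71 and 1.87 CPM. Tbx21, at 0.593 and 0.84, and Zeb2, at 0.0742 and 0.187 CPM, were close to absent.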
